A study of Mus musculus with 8 samples.

Results

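Basophils and mast cells were studied here as 159 of 24942 cells, 0.637% of the table, from erythroblastic islands of lupus-prone mice. They were selected on their own granule and receptor RNA. A cell entered with at least 5 unique molecular identifiers (UMIs, each standing for 1 captured RNA molecule) of Mcpt8 and Prss34 together, or with at least 5 of Cpa3 and at least 1 of Ms4a2. It also had to hold at most 1 UMI of Klf1, the transcription factor of red cell precursors. The first condition is called the protease arm and the second the Cpa3 arm. Of the 159 members, 99 met both arms, 37 met the protease arm alone and 23 met the Cpa3 arm alone. A further 3 cells met an arm but held too much Klf1.

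Erythroblastic islands are clusters of maturing red cells around a macrophage. They were taken from bone marrow and spleen of male Sle1.Yaa mice, a lupus-prone strain that carries the Sle1 locus and the Yaa duplication. The labels give 8 libraries in 4 groups, namely 2 of marrow and 2 of spleen from mice with a human TLR8 transgene that were labelled anemic, and 3 of marrow and 1 of spleen from controls labelled non-anemic. All carried the Sle1.Yaa background, so none is a healthy control. The promoter of the transgene, the age of the mice and any pooling of animals were not stated in the labels.

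No column name tied a cell to a library, so the transgenic and control groups were not compared and no p-value is given. The barcodes formed 8 sorted runs, which served as unnamed libraries, and no tissue or genotype was read from them. Runs held 447 to 6787 cells and 6195876 to 48442321 UMIs. Across runs, 287 barcodes occurred more than once and covered 1031 cells, of which 2 were members. Levels are in CPM, a gene's UMIs scaled to the total UMIs of the same set of cells. Intervals are exact, at 95%, and cover counting error only.

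Basophils are rare granulocytes that arise in marrow from progenitors expressing Gata2 and Cebpa, and mast cells are their tissue-resident relatives. Both display the high-affinity IgE receptor FceRI, whose crosslinking releases histamine, lipid mediators and cytokines such as interleukin 4. In mice, the proteases mMCP-8 (Mcpt8) and mMCP-11 (Prss34) mark basophils. Carboxypeptidase A3 (Cpa3) is shared with mast cells and their precursors, while mature mast cells of connective tissue carry chymases and tryptases.

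The promoters of the 4 genes that chose the cells are shown because the lineage depends on the transcription factor GATA2, whose RNA was among the 15 furthest above other cells. Each runs from 250 bases before to 50 bases after the gene's start, 5′ to 3′ on the gene's own strand, from RefSeq on GRCm38.p6. Capitals mark the GATA motif, searched on both strands in 4 spellings, which were AGATAA as well as the form AGATAG, the form TGATAA and also the form TGATAG. The Prss34 window is at chr17:25298144-25298443 on the plus strand, and the others lie on the minus strand, at chr14:56085148-56085447 for Mcpt8, chr3:20242132-20242431 for Cpa3 and chr19:11623670-11623969 for Ms4a2.
Prss34: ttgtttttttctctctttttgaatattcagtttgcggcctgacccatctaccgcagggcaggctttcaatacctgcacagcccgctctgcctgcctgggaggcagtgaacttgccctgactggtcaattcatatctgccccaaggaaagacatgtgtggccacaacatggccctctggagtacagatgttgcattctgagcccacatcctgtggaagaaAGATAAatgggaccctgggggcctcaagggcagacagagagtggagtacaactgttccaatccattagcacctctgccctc
Mcpt8: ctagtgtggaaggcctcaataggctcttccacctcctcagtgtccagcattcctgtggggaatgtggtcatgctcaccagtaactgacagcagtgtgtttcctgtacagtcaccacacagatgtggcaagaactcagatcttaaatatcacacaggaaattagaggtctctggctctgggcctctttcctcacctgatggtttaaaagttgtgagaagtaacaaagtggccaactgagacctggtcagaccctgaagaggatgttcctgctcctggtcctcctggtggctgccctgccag
Cpa3: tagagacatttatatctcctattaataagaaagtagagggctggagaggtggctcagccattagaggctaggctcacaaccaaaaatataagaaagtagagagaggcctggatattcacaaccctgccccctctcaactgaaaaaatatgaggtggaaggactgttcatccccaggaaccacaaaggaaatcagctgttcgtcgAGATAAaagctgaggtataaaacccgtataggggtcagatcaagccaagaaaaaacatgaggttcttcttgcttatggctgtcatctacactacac
Ms4a2: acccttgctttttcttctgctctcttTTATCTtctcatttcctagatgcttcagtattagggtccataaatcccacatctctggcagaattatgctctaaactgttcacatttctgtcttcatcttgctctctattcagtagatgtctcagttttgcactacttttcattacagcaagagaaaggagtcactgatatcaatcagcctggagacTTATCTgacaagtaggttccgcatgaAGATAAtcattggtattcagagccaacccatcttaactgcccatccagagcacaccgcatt
Prss34, Cpa3 and Ms4a2 held the motif and the Mcpt8 window did not, against 29.8% of 32851 promoter windows of the same length. The single copies in Prss34 and Cpa3 began at -31 and -46 from the start site. Ms4a2 held 3 copies, at -224, -37 and -11. A match is a string of letters and not a measured binding site.

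Members were found in 6 of the 8 runs, and 5 of these held at least 20. They made up 1.19%, 1.35%, 0.905%, 0.850%, 0.0345% and 0.368% of the cells of runs 1 to 6. Run 5 held 1 member among 2898 cells. Runs 7 and 8 held 0 of 1743 and 0 of 447 cells, which allows shares of up to 0.211% and 0.822%. The interval of run 6, 0.239 to 0.543%, lay below those of runs 1 to 4, whose lowest bound was 0.596%. Run 2 differed in make-up, since 15 of its 33 members met the Cpa3 arm alone, against 1 to 4 in each of the other 4 runs with at least 20 members.

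**Figure D1:**
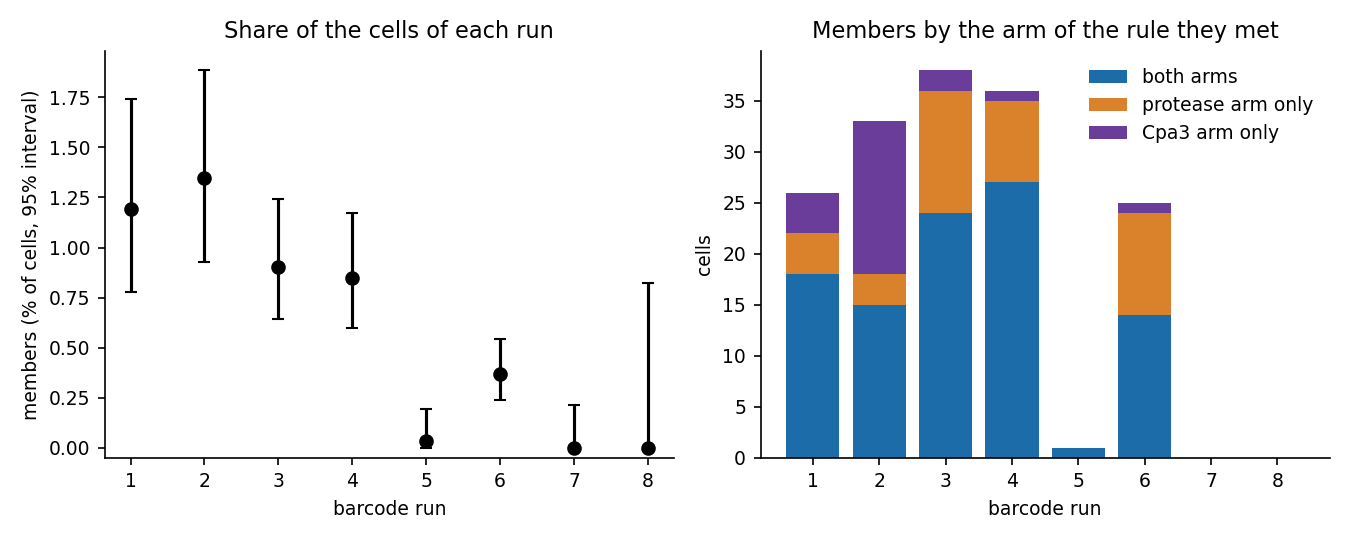
Left, members as a percentage of the cells of each barcode run, with exact 95% binomial intervals. Right, the number of members by the arm of the rule they met. Runs 1 to 4 lay between 0.850% and 1.35%, runs 5, 7 and 8 held 1, 0 and 0 members, and run 2 held 15 of the 23 cells of the Cpa3 arm alone.

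Because the rule read Mcpt8, Prss34, Cpa3 and Ms4a2, their levels describe the choice and test nothing. Members held 98.1% of all Prss34 UMIs in the table, 95.8% of Mcpt8, 83.8% of Ms4a2 and 82.9% of Cpa3. Prss34 made up 1.61% of the members' UMIs. The median member had 60 Mcpt8, 67 Prss34, 17 Cpa3 and 5 Ms4a2 UMIs, and the most in 1 cell was 582, 1224, 112 and 48. At the edge of the protease arm, 5 cells with exactly 5 UMIs were taken in and 4 cells with exactly 4 were left out, both with a median of 2 of 7 basophil markers, Ms4a2 included. At the edge of the Cpa3 arm, 2 cells had exactly 5 Cpa3 UMIs and 1 left out had exactly 4, with 4 and 3 markers at the median.

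The label was checked against 6 basophil genes that the rule did not read, Cd200r3, Fcer1a, Gata2, Il3ra, Hgf and Itga2. At least 3 of them were detected in 141 of 159 members, or 88.7%, against 0.375% of all other cells. Among the progenitor sets described below, the share was 14.1% of 64 Kit Cd34 progenitors and 1.41% of 2266 granulocyte-monocyte progenitors. The count was 97 of 99 cells of both arms, 19 of 23 of the Cpa3 arm alone and 25 of 37 of the protease arm alone. With Ms4a2, which the Cpa3 arm requires, added to make 7 genes, the count was 148 of 159 members. Median depth was 10438 UMIs in members and 7537 in other cells, and 5378 in the protease arm alone, where 15 cells had under 5000 UMIs.

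RNA of the progenitor proteases Mpo, Elane and Prtn3 was found in every arm. At least 10 UMIs of these were held by 41 of 99 cells of both arms and 14 of 23 of the Cpa3 arm alone. The count was 7 of 37 in the protease arm alone, the set of lowest median depth, though its cells reached 33918 UMIs. The 7 lacked Prss34 and so entered on Mcpt8 alone. Whether they were basophils or granulocyte-monocyte progenitors, a set chosen below by the same 10 UMIs, was not tested. Neutrophil and globin RNA lay in fewer cells. In 3 cells of the protease arm alone, a list of 13 neutrophil genes made up 37.7%, 31.9% and 33.0% of the UMIs, and in 1 more globin made up 52.6%. Together with 1 cell of both arms, 5 members had at least 5% neutrophil-list or globin UMIs, and these 5 held 82.0% of the members' neutrophil-list UMIs. Without them the list stood at 0.161% of the members' UMIs, against 0.0907% in erythroid cells with at least 2 Klf1 UMIs, which should lack it. No doublet caller was run, and whether these 5 barcodes held more than 1 cell was not tested.

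RNA of the mast cell proteases examined lay in few members. The mucosal mast cell proteases Mcpt1 and Mcpt2 had 0 UMIs in members, which allows up to 1.55 CPM. The genes Mcpt4, Cma2, Tpsb2, Tpsab1, Mrgprb1 and Mrgprb2, which mark connective tissue mast cells, were not analysed here. Cma1, the mast cell chymase, had 194 UMIs in members, and 190 of these lay in 3 cells of runs 1, 2 and 2. Those 3 cells held 53, 67 and 70 Cma1, 55, 90 and 58 Cpa3, and 6, 8 and 13 Kit UMIs. They also held 23, 24 and 40 Mcpt8 UMIs and none of Prss34. Kit, the stem cell factor receptor that mature mast cells keep, was detected in 33 of 159 members. These included 16 of 23 cells of the Cpa3 arm alone and 12 of 99 of both arms, at median depths of 18250 and 10603 UMIs. Of the 23, 21 lacked Prss34 and 17 lacked Mcpt8, which the rule keeps low there. Whether those cells were mast cells, precursors or basophils was not tested. Most members thus carried the basophil genes, and 3 cells combined chymase, Kit and Cpa3.

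**Figure D2:**
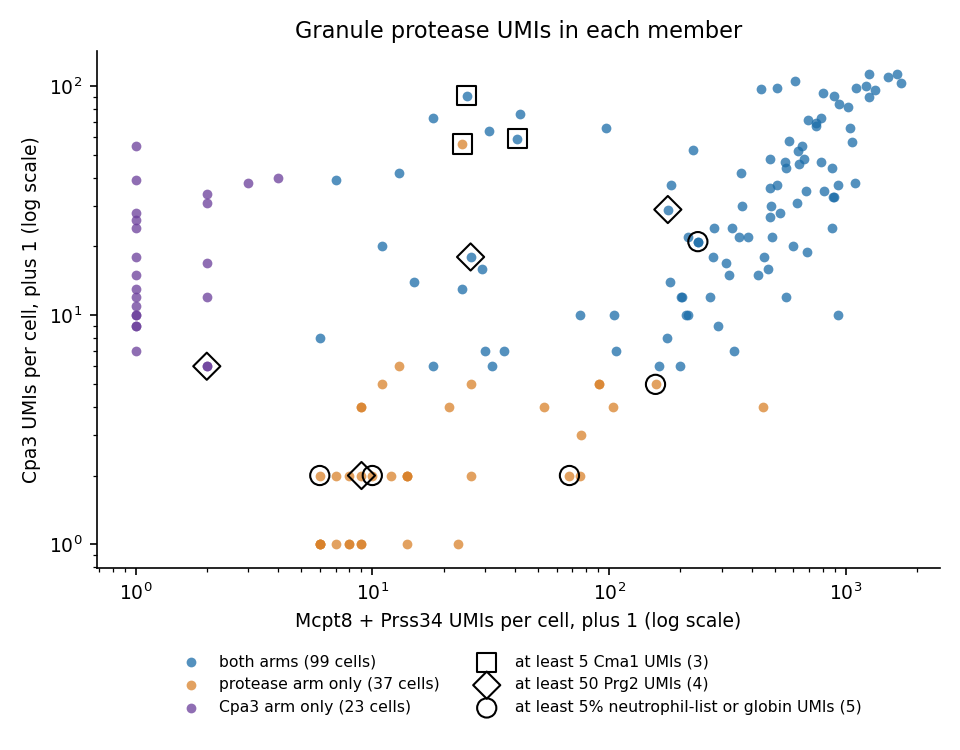
Each point is 1 member, by its UMIs of Mcpt8 and Prss34 together (horizontal) and of Cpa3 (vertical), both plus 1 on log scales, coloured by the arm met. Open squares mark the 3 cells with at least 5 Cma1 UMIs, diamonds the 4 with at least 50 Prg2 UMIs and circles the 5 with at least 5% neutrophil-list or globin UMIs. Most of the 99 cells of both arms lay at the upper right, and the 23 cells of the Cpa3 arm alone formed a column at the left edge.

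A few members carried eosinophil granule RNA. Prg2, which encodes the eosinophil major basic protein, had 4547 UMIs in members, and 4 cells held 4536 of them, with 1485, 386, 403 and 2262 UMIs. All 202 UMIs of Prg3 and all 282 of Epx, eosinophil peroxidase, were in the same 4 cells, which came from runs 1, 2, 2 and 3. No other member held more than 1 Prg2 UMI. Of the 4, 2 met both arms. The one of run 1 held 78 Mcpt8 and 98 Prss34 UMIs, and the one of run 3 held 20 and 5. The 2 cells of run 2 held 1 and 8 Mcpt8 UMIs and no Prss34. One of these entered at the rule's minimum, with 5 Cpa3 and 1 Ms4a2 UMIs, and held 21 Ear6 UMIs. Cd200r3 had 2 UMIs in the cell of run 1 and none in the rest. Whether the 4 were basophils or eosinophils was not tested. A further 11 cells outside the members had at least 50 Prg2 UMIs. The level of 2357 CPM over all members thus rested on 4 cells.

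Levels were next compared with those of all 24783 other cells. Differences are log2 ratios with a pseudocount of 10 CPM, over genes that reached 20 CPM in members or in the other cells. They were centred on the median gene, which lay 0.34 higher in members before centring. A call of higher or lower required a 2-fold difference or more, with 1 sign throughout the 5 runs that held at least 20 members. Of 5837 genes compared, 315 were called higher (5.4%) and 564 lower (9.66%). These counts describe 1 pooled sample and are no test. With plain totals in place of centring the counts were 573 higher and 400 lower. Of 26 listed basophil genes, 24 were called higher, with a median of 2.65. The list was drawn up with results of these data known and holds 3 of the rule's own genes. Csrp3, which encodes a muscle LIM protein, and Rnase12, a member of the ribonuclease A family, were among the 15 genes furthest above other cells, at 314 and 167 CPM against 1.18 and 0.361 CPM. Among the 10 furthest below were Jchain, Hbb-bt, Hba-a1, Hbb-bs, Hba-a2, Cd74, Rhd, Slc4a1 and Alas2, of plasma cells, red cells and antigen-presenting cells. All 12 erythroid genes were called lower, with Hbb-bs at 2206 against 99011 CPM.

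The IgE receptor was carried in all 3 subunits, but at different distances from other cells. Fcer1a, its binding chain, stood at 1372, 1070, 1342, 1456 and 928 CPM in members of runs 1, 2, 3, 4 and 6, against 6.37, 14.3, 1.05, 1.92 and 1.60 CPM in other cells. The centred difference was 6.32 and members held 78.6% of the table's Fcer1a. Fcer1g, the gamma chain that other Fc receptors share, stood at 1078 CPM in members and 580 CPM in other cells, a difference of 0.55 that was not called. Among 23 compared genes of the signalling chain behind the receptor, 2 were called higher and 2 lower (5.4% and 9.66% over all genes). Their median was -0.15. The 2 higher ones were the adaptors Lat, at 83.4 against 17.5 CPM, and Lat2, at 245 against 19.0 CPM. The kinases Lyn and Syk, which start the chain, were at 50.8 and 59.6 CPM in members and 73.4 and 70.1 CPM in other cells and were not called.

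Of 32 compared receptor genes, 13 were called higher and 4 lower, with a median of 0.91. Over all genes compared, 5.4% were called higher and 9.66% lower. The receptors for interleukin 3, the growth factor of basophils, were among the higher ones. Il3ra stood at 160 CPM in members and 14.3 CPM in other cells. Its level ran only between 141 and 170 CPM over the 5 runs of members. Csf2rb, the shared signalling chain, stood at 278 against 41.8 CPM. A receptor chain for each of the alarmins interleukin 33, interleukin 18 and TSLP was called higher as well. Il1rl1 stood at 75.2 against 7.27 CPM, Il18rap at 151 against 22.9 CPM and Crlf2 at 199 against 50.3 CPM. Il18r1 and Il7r, further chains of the interleukin 18 and TSLP receptors, differed in sign between runs and were not called. In members of runs 1, 2, 3, 4 and 6, Il18r1 had 2, 9, 39, 28 and 5 UMIs. Il7r had 0, 2, 14, 6 and 3. Cd200r3, an activating receptor of basophils, stood at 373 against 0.467 CPM, and members held 86.2% of its UMIs. The 4 lower ones were Csf2ra, Epor, Fcgr4 and Pilra. Csf2ra, the chain that makes the GM-CSF receptor, was at 31.6 against 79.6 CPM.

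Of 15 cytokine genes compared, 9 were called higher and 2 lower (5.4% and 9.66% over all genes), with a median of 2.17. With no minimum level, which brings in genes near 0, the median of 28 was 0.17. Csf1, the macrophage growth factor, stood at 375, 168, 1271, 1199 and 300.1 CPM in members of runs 1, 2, 3, 4 and 6, against 4.55 to 8.33 CPM in other cells of those runs. Members, 0.637% of cells, held 45.8% of all Csf1 UMIs. Il6 stood at 217 against 1.06 CPM and members held 61.6% of it. Hgf, hepatocyte growth factor, stood at 210 against 2.43 CPM, with 40.4% of its UMIs in members. Il4, the signature cytokine of the lineage, had 82 of the table's 137 UMIs in members, at 42.5 CPM (33.8 to 52.8) against 0.223 CPM. Il13, its usual partner, had 6 UMIs in 6 members, and Il5 had none, while Il3 and Il9 were not analysed here.

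Chemokine RNA was abundant. Ccl3 and Ccl4, which attract monocytes and other leukocytes, stood at 3293 and 2903 CPM in members, against 111 and 218 CPM in other cells. Ccl6, Ccl9 and Osm, which encodes oncostatin M, were also called higher, at 457, 460 and 382 CPM against 72.2, 40.4 and 56.2 CPM. The 2 genes called lower were Il1b, at 7.26 against 82.1 CPM, and Cxcl2, at 244 against 549 CPM, both neutrophil and macrophage products. Tnf did not differ by the rule, at 74.6 against 52.0 CPM.

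Per cell, Csf1 and Il6 RNA lay in many members, and Il4 and Il13 RNA in fewer. After each cell was thinned to 5000 UMIs, which left out 20 members, 200 granulocyte-monocyte progenitors and 8918 of the other cells, 43.2% of 139 members had an Il6 UMI and 66.2% a Csf1 UMI. Among other cells these shares were 0.372% and 1.80%. Il4 was detected in 20.9% of members and 0.113% of other cells, and Il13 in 2.16% and 0.0189%. Before thinning, all 159 members gave 56.0%, 74.8% and 31.4% for Il6, Csf1 and Il4, against 0.617%, 3.37% and 0.198% of other cells. Runs differed, with Il6 in 28 of 38 and 31 of 36 members of runs 3 and 4. It was in 10 of 26, 11 of 33 and 9 of 25 members of runs 1, 2 and 6. Erythroid cells, taken as the background of free RNA, gave 0%, 0.108% and 0.162% for Il6, Csf1 and Il4 after thinning.

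**Figure D3:**
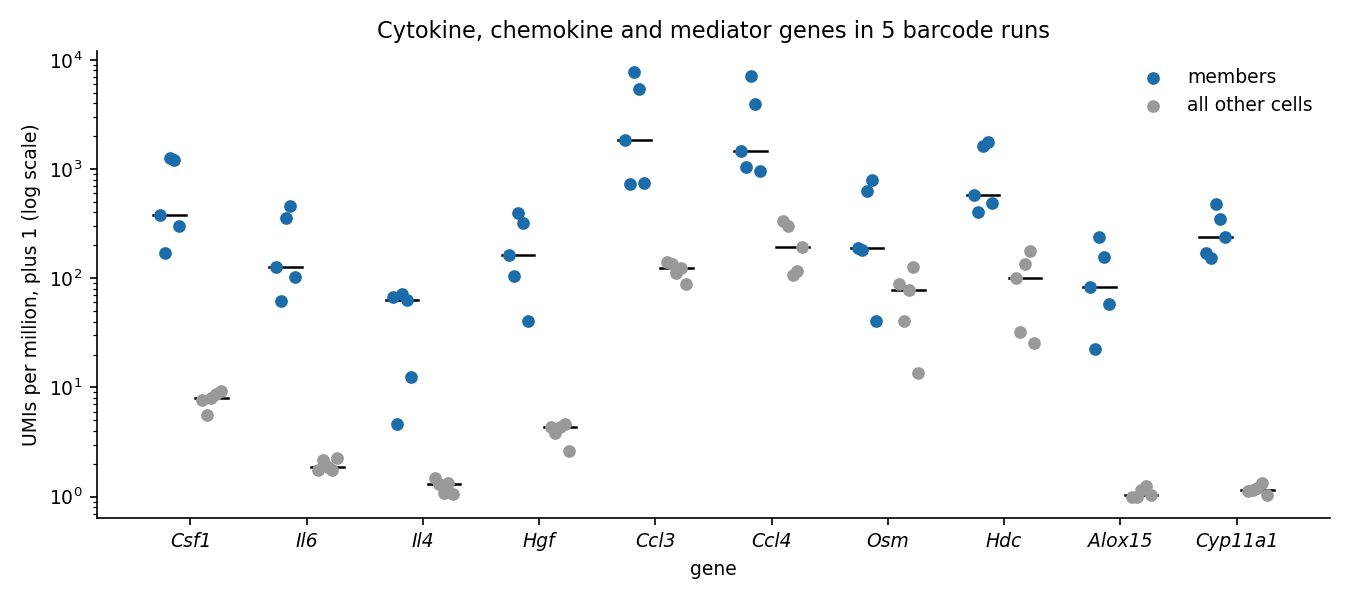
Levels in CPM, plus 1 on a log scale, of 10 mediator genes in members (blue, left) and all other cells (grey, right), 1 point for each of the 5 runs with at least 20 members, with black lines at the medians. Csf1, Il6, Il4, Hgf, Ccl3, Ccl4, Hdc, Alox15 and Cyp11a1 did not overlap between the sets, while Osm did. The genes were chosen with earlier results known. The share of all compared genes without overlap was not counted, so the lack of overlap is a description only.

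Within members, cytokine levels differed between runs. The summed cytokine list stood at 20229 and 14255 CPM in runs 3 and 4, against 5524, 3204 and 3635 CPM in runs 1, 2 and 6. Runs 3 and 4 were also the highest among cells of both arms alone, at 16199 and 12668 CPM in runs 3 and 4, and 7175, 6617 and 4275 CPM in runs 1, 2 and 6. In those cells Cpa3 did not have runs 3 and 4 highest, at 2280 and 2902 CPM in runs 3 and 4 and 3985, 4262 and 2292 CPM in runs 1, 2 and 6. A list of 20 genes that tissue dissociation induces stood at 27695 and 30657 CPM in members of runs 3 and 4, and 24065, 24700 and 12919 CPM in those of runs 1, 2 and 6. In cells of both arms alone it stood at 25090, 31694, 23650, 27389 and 15093 CPM in runs 1, 2, 3, 4 and 6, with run 2 the highest and run 3 below run 1. Over all members 7 of its 20 genes were called higher and 1 lower than in other cells (5.4% and 9.66% over all genes). Among the higher were Egr1, at 900 against 175 CPM, and Ier3, at 1651 against 107 CPM. The part of handling in the cytokine levels was not tested, and the groups of the runs are unknown.

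Genes of histamine and lipid mediators were called higher in 8 of 12 compared and lower in 1 (5.4% and 9.66% over all genes). The median was 2.15, and 0.84 over 17 genes with no minimum level. Hdc, the enzyme that makes histamine, stood at 972 against 80.0 CPM, and Slc18a2, which loads amines into granules, at 109 against 2.76 CPM. Alox5, Alox5ap and Ptgs2, of the leukotriene and prostaglandin pathways, were called higher at 247, 1058 and 108 CPM against 27.9, 352 and 15.1 CPM. Alox15, a lipoxygenase, had 89.5% of its UMIs in members. Cyp11a1, the enzyme that opens steroid synthesis from cholesterol, had 93.0%, at 267 against 0.158 CPM, and was detected in 127 of 159 members. Ptgs1 was the gene called lower, at 4.66 against 31.0 CPM. The leukotriene C4 synthase gene Ltc4s was too low to be compared, at 6.22 against 1.36 CPM.

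Among 20 compared genes of granule make-up and release, 5 were called higher and 1 lower (5.4% and 9.66% over all genes). Their median was 0.31. The higher ones included Srgn, which encodes the granule proteoglycan core serglycin, at 3386 against 767 CPM, and Cd63, a granule membrane protein used as a basophil activation marker, at 1895 against 231 CPM. Stx3, a membrane fusion protein, stood at 166 against 4.47 CPM. Most of the general fusion machinery did not differ by the rule.

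Of 26 compared transcription factor genes, 8 were called higher and 3 lower (5.4% and 9.66% over all genes). Gata2 was detected in 153 of 159 members and stood at 760 CPM, against 10.1 CPM in other cells. Cebpa, which works with it in basophil precursors, stood at 195 against 13.3 CPM. Ikzf2, Runx1, Myb and Lmo4 were also called higher, at 295, 383, 219 and 462 CPM against 14.98, 62.8, 50.2 and 81.5 CPM. Gata1, the partner of Klf1 in red cells, was at 21.8 against 46.0 CPM and was not called. Egr1 and Klf6, immediate early genes, completed the 8. Irf8, Zfpm1 and Bhlhe40 were called lower. Irf8, a factor of monocytes and dendritic cells, was at 18.7 against 122 CPM.

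The study concerns a transgenic RNA sensor, so Toll-like receptor and interferon genes were listed. Mouse Tlr8 and Tlr9 had no UMI in members, and Tlr7 had 2, in 2 cells. Other cells held 1.79, 0.272 and 11.0 CPM of the 3 genes, all below the 20 CPM that a comparison needed, while 0 UMIs in members allow up to 1.55 CPM. Unc93b1, the escort of these receptors, was called lower, at 11.9 against 89.7 CPM. Of 25 interferon-response genes compared, 1 was called higher and 11 lower (5.4% and 9.66% over all genes), with a median of -0.93. Isg15 was at 32.7 against 327 CPM and Rsad2 at 36.3 against 189 CPM. After thinning, 4.32% of members and 35.3% of other cells had an Isg15 UMI. The 1 gene called higher was Ly6e, a surface protein, at 1667 against 489 CPM.

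The interferon difference depended on the cells used for comparison. Granulocyte-monocyte progenitors, here 2266 cells with at least 10 UMIs of Mpo, Elane and Prtn3 and no membership, were taken as closer in lineage. Of these, 1122 had at least 5% neutrophil-list UMIs. Against them 378 of 5671 genes were called higher (6.67%) and 299 lower (5.27%), over the same 5 runs. Of 14 interferon genes compared, 1 was called higher and 0 lower, with a median of 0.37. The 25 compared with all other cells were a different set of genes. Isg15 stood at 17.4 CPM in these progenitors, and 6.34% of them had an Isg15 UMI after thinning. In erythroid cells the share was 50.2%.

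The basophil genes stood apart from these progenitors as they did from all cells, with 24 of 26 called higher and a median of 2.88. That list holds genes of the rule and was drawn up with results known, so this is a description. Cytokine genes were called higher in 9 of 15 and lower in 0, and receptor genes higher in 19 of 31 and lower in 4. Over all genes the shares were 6.67% higher and 5.27% lower. Genes entered at 20 CPM in either set, and some, such as Csf1 at 5.40 CPM in the progenitors, entered through members alone. A setting with no minimum was not tried here, so these counts are a description as well. The genes furthest below the progenitors were Fcnb, Elane, Ly6c2, Camp, S100a8, Wfdc21, Chil3 and Lyz2, products of neutrophils and monocytes. Elane helped to choose the progenitors and is a description. Many of these progenitors held neutrophil RNA, so the other genes describe the make-up of that set as well. Lyz2, lysozyme, was at 167 against 2942 CPM, and Ly6c2 at 60.6 against 1602 CPM. Ctsg, cathepsin G, was not called, at 2277 against 1981 CPM.

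Cells with at least 2 UMIs each of Kit and Cd34 and few progenitor proteases, 64 in all, served as earlier progenitors. Against them 522 of 6404 genes were called higher (8.15%) and 205 lower (3.2%), over runs 1, 2 and 6, which held at least 10 of each. Fcer1a was already present in these progenitors, at 133 CPM, against 1273 CPM in members, as was Gata2, at 173 against 760 CPM. Hdc was not, at 972 CPM in members and 5.64 CPM in the progenitors. The genes furthest below them were Dntt, Ly6a, Flt3, Mef2c, Nrgn, Gimap6, Hlf and Tsc22d1, several of them lymphoid or stem cell genes. Mitosis genes were called higher in 13 of 23 and lower in 0, with a median of 1.21. Against all other cells, 0 were higher and 8 of 24 lower, with a median of -1.03, and against the granulocyte-monocyte progenitors none was called, with a median of -0.57.

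**Figure D4:**
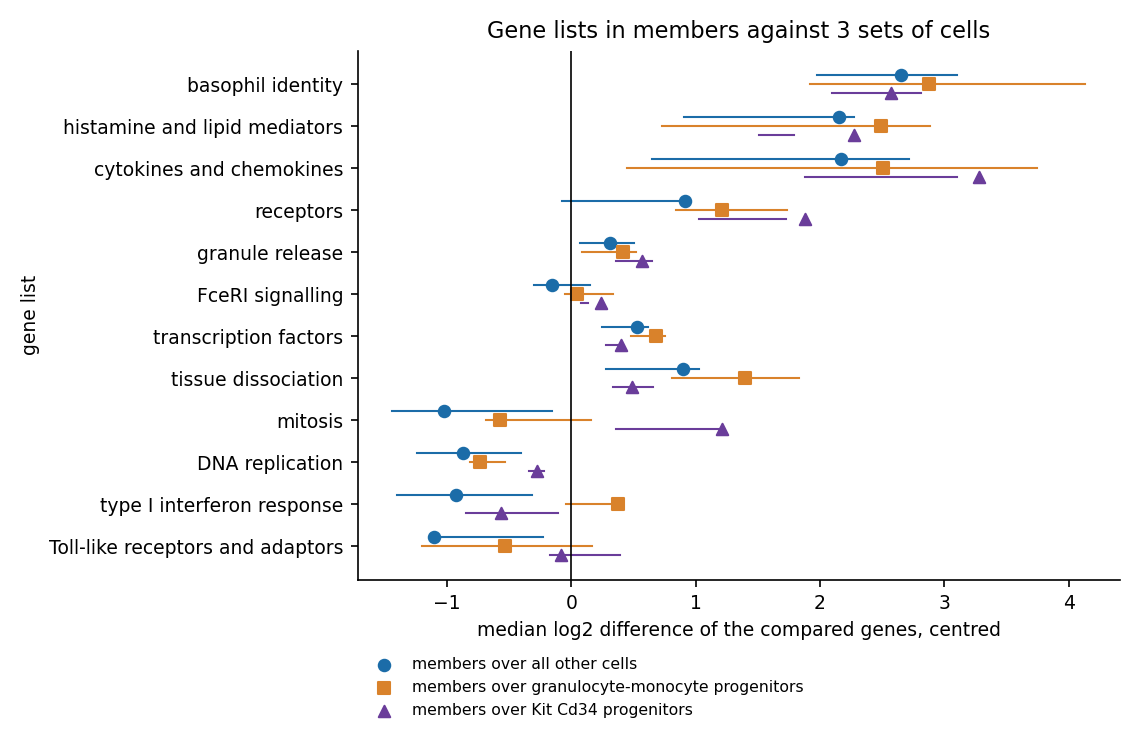
Median centred log2 difference of the compared genes of 12 lists (horizontal) in members against all other cells (blue circles), granulocyte-monocyte progenitors (orange squares) and Kit Cd34 progenitors (purple triangles). Lines give the range of the list's median over the runs compared, which are 3 of the 8 for the last set, so that its pooled median can lie outside its line. Pooled medians of the basophil, mediator and cytokine lists lay above 2 in all 3 comparisons, while the interferon median was -0.93, 0.37 and -0.56. Medians of single runs reached lower. They were 1.51 to 1.79 for mediators against Kit Cd34 progenitors and as low as 0.447 for cytokines against granulocyte-monocyte progenitors. Genes entered at 20 CPM in either set, some of them through members alone. With no minimum the cytokine and mediator medians against all other cells were 0.17 and 0.84, and this was not tried against the progenitors. The basophil list holds genes of the rule and was drawn up with results known.

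The members that met the Cpa3 arm alone differed from those of both arms in more than the rule's genes. The comparison is of 23 and 99 cells, with the sign required in run 2, which held 15 of each, and it was added after the data were seen. Of 6095 genes compared, 257 were called higher (4.22%) and 541 lower (8.88%). Depth differed, with medians of 18250 and 10603 UMIs. Prss34 and Mcpt8 stood at 5.15 and 23.2 CPM in the Cpa3 arm alone and 24549 and 14986 CPM in both arms, a difference that the rule sets.

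Fcer1a, which the rule did not read, was carried by both sets. It stood at 1085 CPM in the Cpa3 arm alone and 1561 CPM in both arms, a centred difference of -0.68 that was not called. Ms4a2, which both sets hold by the rule, was called lower, at 397 against 801 CPM. Slc18a2 was at 157 against 109 CPM and Csf2rb at 247 against 277 CPM. Of the 26 basophil genes, 16 were called lower in the Cpa3 arm alone and 1 higher, with a median of -1.62, and these include rule genes. Cd200r3 stood at 41.2 against 480 CPM, Cyp11a1 at 56.7 against 317 CPM and Hdc at 214 against 1132 CPM. Of 14 cytokine genes, 12 were called lower and 0 higher, among them Il6, at 10.3 against 291 CPM, and Csf1, at 90.2 against 757 CPM. The pooled levels mix arm and run, since 15 of the 23 cells came from run 2, where cells of both arms had lower cytokine levels than in runs 3 and 4. Within run 2, with 15 cells each, Il6 stood at 7.19 against 153 CPM, Csf1 at 68.3 against 353 CPM and the summed cytokine list at 1157 against 6617 CPM. Hdc was at 201 against 758 CPM and Cd200r3 at 43.1 against 405 CPM there. The direction was the same within the run, and the distance in Csf1 and Il6 was smaller than in the pooled cells. Klf5, Slpi and Igfbp7 had no UMI in the 23 cells, which allows up to 7.73 CPM, against 123, 336 and 109 CPM in both arms and 23.8, 133 and 90.6 CPM in cells of both arms from run 2.

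Genes of early progenitors were higher in the Cpa3 arm alone, in 4 of 5 compared. Cd34 stood at 214 against 67.0 CPM, Meis1 at 129 against 24.2 CPM and Hlf at 54.1 against 4.04 CPM, the last detected in 12 of 23 and 4 of 99 cells. Ly6a was the other one. Within run 2 the distances were smaller, with Cd34 at 259 against 129 CPM, Meis1 at 133 against 57.2 CPM and Ly6a at 35.9 against 28.6 CPM. Kit, at 97.9 against 29.9 CPM in all, had the opposite sign in run 2, at 64.7 against 114 CPM. Ctla2a stood at 835 against 18.6 CPM, in 19 of 23 and 17 of 99 cells, and Zfpm1, the cofactor of GATA factors, at 106 against 4.04 CPM. Mitosis genes were called lower in 15 of 23 and higher in 0, with a median of -1.19, while DNA replication genes had a median of 0.06. Birc5 and Ube2c, both active in cell division, were at 82.5 and 85.05 CPM against 224 and 312 CPM.

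Of 25 interferon genes, 8 were called higher in the Cpa3 arm alone, but 1 cell of run 2 carried 27.97% of that list's UMIs. Without it 2 of 14 were called higher and 1 lower, and the summed list stood at 2595 CPM in the remaining 22 cells and 2587 CPM in both arms. The early progenitor and cytokine counts, 4 of 5 higher and 12 of 14 lower, were the same without that cell. Among other genes with the largest differences, Ear6 came from 1 cell and Iigp1 from 3, so neither describes the 23 cells as a whole.

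**Figure D5:**
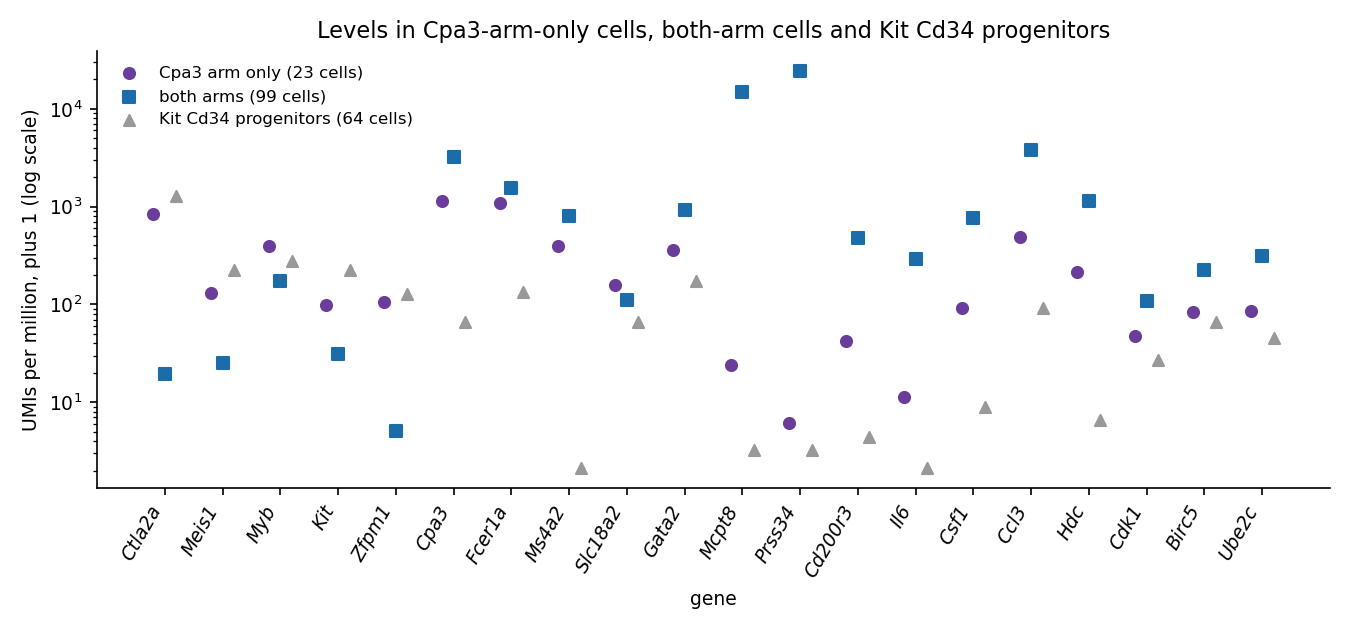
Levels in CPM, plus 1 on a log scale, of 20 genes in the Cpa3 arm alone (purple circles), both arms (blue squares) and Kit Cd34 progenitors (grey triangles). Ctla2a, Meis1 and Zfpm1 lay higher in the Cpa3 arm alone than in both arms, as in the progenitors. In these pooled levels Cd200r3, Il6, Csf1, Ccl3 and Hdc lay between the progenitors and both arms. Within run 2 Ccl3 of the Cpa3 arm alone was 46.7 CPM, below the 91.3 CPM of the progenitors of all runs.

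The protease arm alone and the Cpa3 arm alone were compared with no sign required in single runs. Arm and run are mixed there, since run 2 held 15 cells of the Cpa3 arm alone and 3 of the protease arm alone. The sets differed most in Prss34, Ngp, Lcn2, Mcpt8, Camp, S100a9, S100a8 and Retnlg, all higher in the protease arm alone. Apart from the 2 that the rule read, these are neutrophil genes. S100a8 stood at 13310 CPM in the protease arm alone and 242 CPM in the Cpa3 arm alone, and 5 members held 80.6% of its UMIs among all members. Apoe, Icam4, Gzmb, Ddah2, Scin and Atf3 were among the lowest. Apoe, apolipoprotein E, was at 139 against 2322 CPM. Over all members it stood at 1085 and 1377 CPM in runs 1 and 2, and 199, 422 and 226 CPM in runs 3, 4 and 6. Atf3 stood at 398 CPM in members of run 2 and 19.7 to 87.6 CPM in those of runs 1, 3, 4 and 6. For both genes a difference between arms cannot be told apart from one between runs. Gzmb, granzyme B, was at 19.8 against 240 CPM, but nearly all of the latter came from 1 cell. That cell, of run 3, held 92 Gzmb UMIs in a set of 388023 UMIs. It also held 20 Scin UMIs, so neither gene describes the Cpa3 arm alone as a whole. Ccl3 stood at 4719 CPM in the protease arm alone and 490 CPM in the Cpa3 arm alone, against 3823 CPM in both arms. Within run 2 it stood at 46.7 CPM in the Cpa3 arm alone and 1840 CPM in both arms.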

How the data were processed

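Single cells were captured with 10x Genomics 3′ chemistry, per the labels' protocols. The authors deposited 1 pooled table of raw UMI counts, 19669 genes by 24942 cells and 248384567 UMIs. Cell Ranger 5.0.0 and Seurat 3.1.5 are listed with the mm10 build, per the submitters' processing notes. The columns carried barcodes alone, so the planned comparison of labelled groups was not made and the table counts as 1 sample. The 8 sorted runs of barcodes were taken as unnamed libraries.

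Members, gene lists and comparisons were chosen with earlier results of these data known. Counts were summed per set of cells and scaled to CPM. The log2 ratio used a pseudocount of 10 CPM, genes of at least 20 CPM in either set, and centring on the median gene. A call needed at least 2-fold and the same sign in each run with at least 20 members. For the Kit Cd34 progenitors the runs used held at least 10 of each set. Between the Cpa3 arm alone and both arms only run 2 was used. Between the protease arm alone and the Cpa3 arm alone no sign in single runs was required. Genes named were the 15 highest and 10 lowest against other cells, the 8 highest and 8 lowest in the other comparisons and up to 10 of each list by level, leaving out predicted, mitochondrial and antigen receptor genes. A few genes that met this rule are not reported here. The comparison of the Cpa3 arm alone with both arms, some of the genes named in it, its levels within run 2 and the count of 6 basophil genes were added after the values were seen.

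Shares of cells were also taken after thinning each cell to 5000 UMIs. Intervals are exact Poisson for levels and exact binomial for shares, at 95%. For levels, a count of 0 was given a floor of 3 counts. No filter on cells was added and no doublet caller was run. Alternatives covered the rule's minimum, cell filters, scaling, pseudocount, minimum level, globin removal and leaving out each run. Code was tested on simulated data and run in Python 3.11.15 with numpy 2.4.6, scipy 1.17.1 and matplotlib 3.10.9.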

Additional observations from a re-analysis of the deposited data

How the results depend on the processing

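Members made up 0.637% of cells, 0.541% with a minimum of 10 UMIs and 0.775% once a floor of 500 genes and a ceiling of 10% mitochondrial UMIs was set per cell. Leaving out each run in turn gave 0.560 to 0.738%, and the other alternatives 0.613 to 0.710%. Genes higher than in other cells numbered 315, against 573 with plain totals and 602 with no minimum level, and 304 to 359 when each run was left out. Genes lower numbered 564, against 359 at a minimum of 50 CPM, where fewer genes are compared, and 536 to 690 when each run was left out. The median of the Toll-like receptor list was -1.11, and 0.073 at a minimum of 50 CPM, where 3 genes remained. With no minimum level, which adds genes near 0, the medians fell to 0.17 for cytokines (2.17 with the minimum), 0.84 for histamine and lipid mediators (2.15), 0.65 for mast cell genes (2.42) and 0.07 for granule serine proteases (2.03). Of 36 named genes, 33 kept their sign under all 22 settings. Calls were lost for 4 globin genes when globins were left out of the totals, and for Il4 at a minimum of 50 CPM. Alternatives chosen after seeing the data gave 321 higher and 638 lower without the 5 mixed cells, 357 and 660 without the protease arm alone, 356 and 567 without the Cpa3 arm alone, 316 and 567 without the cells rich in Prg2 or Cma1, and 405 and 648 with each cell weighted equally. No paired analysis was possible because the columns carry no library, group or replicate number. Depth limits the rarest genes, since 0 UMIs in members allow up to 1.55 CPM.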
